A study of Homo sapiens with 12 samples.

Results

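Fibrinogen is built from 3 chains, Aα, Bβ and γ, encoded by FGA, FGB and FGG. These 3 genes were examined in A549 cells together with SERPINA1, which encodes the protease inhibitor α1-antitrypsin, and with HNF4A, FOXA1, FOXA2 and CEBPA, transcription factors known for driving such genes in liver. The 8 genes were taken by symbol from a table of 25365 names, and all 8 were found. The fibrinogen chains were chosen because their transcripts were lower in PARP3-/- cells in earlier results from these libraries. Their difference between genotypes is therefore given as a description without a test. The other members were named for their role.

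The RNA-seq libraries came from A549 cells, a human lung adenocarcinoma line, that were either wild type (WT) or lacked PARP3, an ADP-ribosyltransferase with a role in DNA repair. Cells of each genotype received vehicle (DMSO) or 1 μM pyridostatin, a small molecule that stabilizes G-quadruplex DNA, for 24 h. This gave 4 groups of 3 replicates, labelled WT vehicle, PARP3-/- vehicle, WT pyridostatin and PARP3-/- pyridostatin, which share the cell line and the culture medium. The PARP3-/- cells were made with Cas9 and a pair of guides that delete part of the gene, and were then cloned by serial dilution. Genotype therefore cannot be told apart from differences between clonally derived cells. The design text calls the replicates biological, but the labels do not say whether they were separate cultures, so p-values measure the spread between these libraries.

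Fibrinogen circulates in plasma and is secreted by hepatocytes as a hexamer with a pair of each chain. Thrombin turns it into fibrin, the scaffold of a clot, which plasmin dissolves again. The 3 genes lie side by side on chromosome 4 and are transcribed together at a high level in liver, where C/EBP factors act on their promoters and interleukin-6 raises them through STAT3 in the acute-phase response. Lung epithelial cells can also make fibrinogen when exposed to interleukin-6 and glucocorticoid. HNF4α, a nuclear receptor, C/EBPα, a leucine zipper factor, and the forkhead proteins FOXA1 and FOXA2, which open chromatin for other factors, are central to hepatocyte gene expression, and the FOXA proteins also act in lung epithelium.

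The promoters of the 3 chains are shown because these are the genes chosen for their lower transcripts in PARP3-/- cells. Each stretch is the 200 bases before the first annotated start site in RefSeq (GRCh38.p14), read 5′ to 3′ along the gene. FGA lies on the minus strand at chr4:154590743-154590942, FGB on the plus strand at chr4:154562780-154562979 and FGG on the minus strand at chr4:154612657-154612856. Capitals mark matches on either strand to a forkhead motif (TGTTTNC), a C/EBP motif (TTNNGCAA), an HNF1 motif (GTTAATNAT) or the core of an interleukin-6 response element (CTGGGAA).
FGA: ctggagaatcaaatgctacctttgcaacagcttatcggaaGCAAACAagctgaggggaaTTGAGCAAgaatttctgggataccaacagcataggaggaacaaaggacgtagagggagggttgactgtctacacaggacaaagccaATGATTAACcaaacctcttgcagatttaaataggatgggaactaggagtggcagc
FGB: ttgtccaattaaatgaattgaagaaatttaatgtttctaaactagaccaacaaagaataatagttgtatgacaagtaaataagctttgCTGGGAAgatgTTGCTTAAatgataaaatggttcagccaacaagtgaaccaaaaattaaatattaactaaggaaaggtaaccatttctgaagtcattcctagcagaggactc
FGG: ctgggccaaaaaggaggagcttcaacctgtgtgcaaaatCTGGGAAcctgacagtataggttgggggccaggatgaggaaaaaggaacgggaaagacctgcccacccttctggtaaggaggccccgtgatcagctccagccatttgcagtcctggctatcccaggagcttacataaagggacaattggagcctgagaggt

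In the 250 bases searched before the start site, FGA held a forkhead match from position -160, a C/EBP match from -141 and an HNF1 match from -55, and also a STAT match (TTCNNNGAA) from -231, upstream of the stretch shown. FGB held the interleukin-6 element from -112 and a C/EBP match from -101. FGG held the interleukin-6 element from -161. None of the 3 held TATAAA, the 9-letter HNF4 motif CAAAGTCCA or 4 runs of at least 3 G separated by 1 to 7 bases, the pattern that can fold into a G-quadruplex. Over the 35114 promoter windows of the same length, 9.15% held the interleukin-6 core, 9.05% the C/EBP motif, 15.5% the forkhead motif, 0.723% the HNF1 motif, 6.57% the STAT motif, 10.7% TATAAA, 0.325% the HNF4 motif and 23.5% the 4 G runs. A forkhead motif was also matched in FOXA1 (from -235) and before the second start site of SERPINA1 (from -108). FOXA1 held 4 G runs from -211 and CEBPA held TATAAA from -30, whereas none of these motifs was found before either start site of HNF4A. A match describes letters in these windows and does not show binding.

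The values are FPKM, in which fragments are divided by transcript length and by the mapped total of the library, so that levels can be compared between genes. The low values of 859 genes with a single transcript gave approximate depths of 24100000 to 34100000 reads per library. All 6 epithelial markers, among them KRT8, KRT18, EPCAM and CDH1, had means of at least 1 FPKM, and their sum was 6912 to 8630 FPKM. KRT19 was higher in PARP3-/- cells in the vehicle comparison by 0.85, and CDH1 and EPCAM were lower (-0.42 and -0.53), on the log2(FPKM + 1) scale (limma, adjusted p = 2.25e-05, 0.00117 and 0.00126), and their part in the results below was not tested. Of 9 markers of alveolar type II cells, only ABCA3 reached a mean of 1 FPKM, SFTPB was at 0 in all libraries, and the sum was 9.33 to 10.4 FPKM in WT and 11.02 to 11.92 FPKM in PARP3-/- libraries. Of 9 hepatocyte markers, APOH alone reached that level (6.13 to 8.30 FPKM), ALB reached at most 0.0361 FPKM and APOA2 was at 0, and the sum of the list ran from 6.63 to 8.57 FPKM. Of 10 blood, endothelial and stromal markers, only COL1A1 averaged 1 FPKM or more, CD3E was at 0 in all libraries, and the sum was 0.839 to 1.33 FPKM in WT and 1.44 to 4.12 FPKM in PARP3-/- libraries. PARP3 itself was not lower in the libraries labelled PARP3-/-, with 3.40, 3.83 and 3.96 FPKM in WT vehicle and 4.07, 4.25 and 4.92 FPKM in PARP3-/- vehicle (adjusted p = 0.137). The deletion removes part of the first exon according to the study, so reads elsewhere in the transcript do not check the genotype.

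The Aα chain gene FGA was the most abundant of the chains in every library. It was at 6.12, 6.55 and 6.65 FPKM in WT vehicle and at 1.45, 1.68 and 2.25 FPKM in PARP3-/- vehicle. With pyridostatin it was at 5.73, 6.02 and 6.08 FPKM in WT and 1.53, 1.88 and 2.12 FPKM in PARP3-/- cells. The 6 PARP3-/- libraries thus all lay below the 6 WT libraries. In RNA from whole cultures, fewer cells expressing a gene and less RNA per cell cannot be told apart. Vehicle and pyridostatin libraries of one genotype lay close together. The mean was 6.44 ± 0.28 FPKM in WT vehicle (SD, n = 3) and 1.80 ± 0.41 FPKM in PARP3-/- vehicle, 3.59-fold lower. With pyridostatin the means were 5.94 ± 0.19 and 1.84 ± 0.30 FPKM, 3.22-fold lower in PARP3-/- cells.

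FGB, the gene of the Bβ chain, was at 3.76, 3.91 and 4.11 FPKM in WT vehicle and at 0.669, 0.726 and 0.871 FPKM in PARP3-/- vehicle. With pyridostatin it was at 3.18, 3.69 and 3.77 FPKM in WT and 0.483, 0.706 and 0.756 FPKM in PARP3-/- cells. No PARP3-/- library reached 1 FPKM and no WT library was below 3. The means of 3.93 ± 0.17 and 0.755 ± 0.10 FPKM with vehicle gave a 5.20-fold lower level in PARP3-/- cells, and those of 3.55 ± 0.32 and 0.648 ± 0.15 FPKM with pyridostatin a 5.47-fold lower level (SD, n = 3 in each group).

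FGG, which encodes the γ chain, was the lowest of the 3. Its values were 1.99, 2.10 and 2.23 FPKM in WT vehicle and 0.199, 0.233 and 0.235 FPKM in PARP3-/- vehicle. In WT pyridostatin they were 1.73, 1.94 and 2.01 FPKM, and in PARP3-/- pyridostatin 0.0752, 0.120 and 0.458 FPKM. The means were 9.48-fold lower in PARP3-/- cells with vehicle (2.11 ± 0.12 against 0.222 ± 0.020 FPKM) and 8.68-fold lower with pyridostatin (1.89 ± 0.15 against 0.218 ± 0.21 FPKM). The last value rested on replicate 2 of PARP3-/- pyridostatin, without which the difference was 19.4-fold. At the estimated depth and the longest coding transcript in GENCODE, the FGG values stand for about 79.2 to 99.2 reads per WT library and 3.21 to 19.8 reads per PARP3-/- library, so its fold is known with less precision than that of FGA (151 to 205 reads per PARP3-/- library) and FGB (23.4 to 38.3 reads). FGG and FGB passed the minimum mean of 1 FPKM over all libraries (1.11 and 2.22 FPKM) only through the WT libraries.

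**Figure D1:**
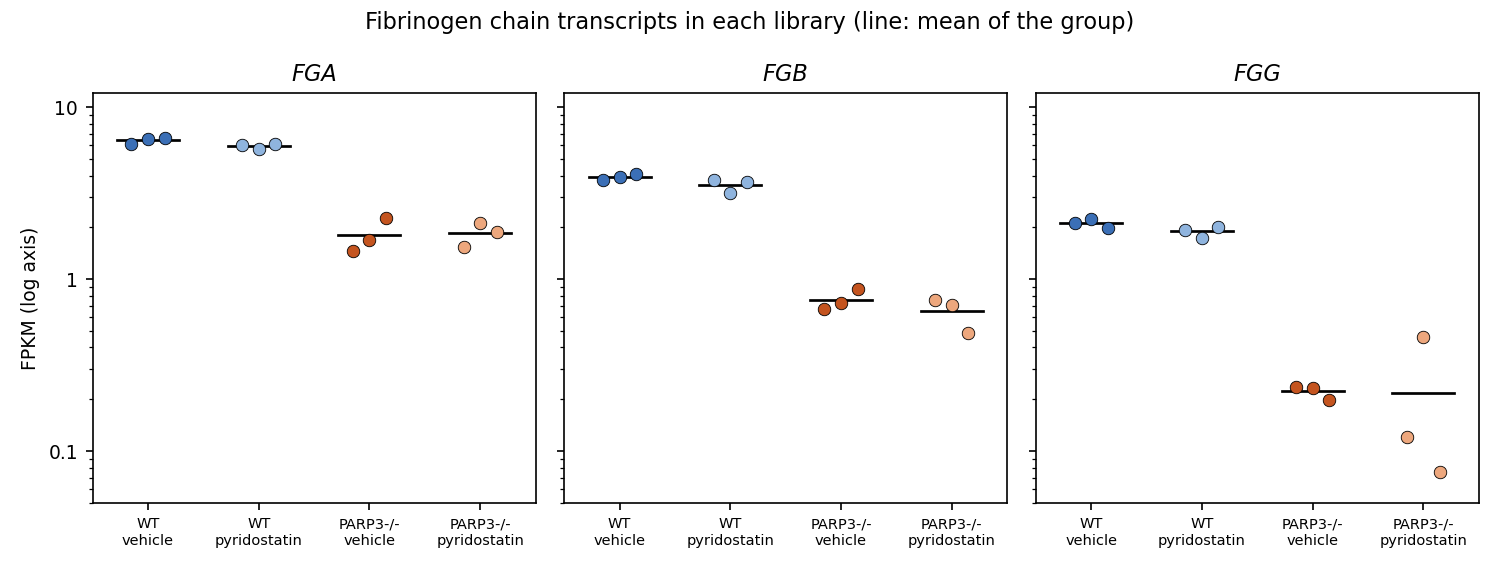
FPKM of FGA, FGB and FGG in each of the 12 libraries on a log axis, with 1 point per library and a line at the mean of each group (n = 3). In each panel all PARP3-/- points lie below all WT points, by 3.22-fold to 9.48-fold between group means, and the widest spread is that of FGG in PARP3-/- pyridostatin (0.0752 to 0.458 FPKM).

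On the scale of the fit, log2(FPKM + 1), the 3 chains differed by nearly the same amount. The difference between PARP3-/- and WT was -1.42 ± 0.10 (SE) for FGA, -1.49 ± 0.081 for FGB and -1.35 ± 0.11 for FGG with vehicle, and -1.29, -1.47 and -1.26 with pyridostatin. The pseudocount of 1 understates the change of low genes. With a pseudocount of 0.1 the differences were -1.81, -2.24 and -2.78 with vehicle, and -1.65, -2.30 and -2.84 with pyridostatin, in the same order as the ratios of the means.

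The chains did not fall in proportion. The summed level of the 3 genes was 12.5 ± 0.43 FPKM in WT vehicle and 2.77 ± 0.50 FPKM in PARP3-/- vehicle. FGA made up 51.0% to 52.2% of that sum in WT vehicle and 61.7% to 67.8% in PARP3-/- vehicle. FGG made up 15.6% to 17.6% in WT vehicle and 5.99% to 9.96% in PARP3-/- vehicle. The share of FGB was 30.8% to 32.2% in WT vehicle and 26.2% to 28.4% in PARP3-/- vehicle. With pyridostatin FGA held 51.3% to 53.9% of the sum in WT and 63.5% to 77.1% in PARP3-/- cells, and FGG 16.2% to 17.1% against 3.09% to 13.9%. FGB held 29.9% to 32.2% in WT and 19.8% to 31.5% in PARP3-/- cells with pyridostatin, where the groups overlapped. The ratio of FGA to FGG was 2.91 to 3.34 over the 6 WT libraries and 4.64 to 25.0 over the 6 PARP3-/- libraries, without overlap. These shares come from the values that chose the genes and are given without a test.

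**Figure D2:**
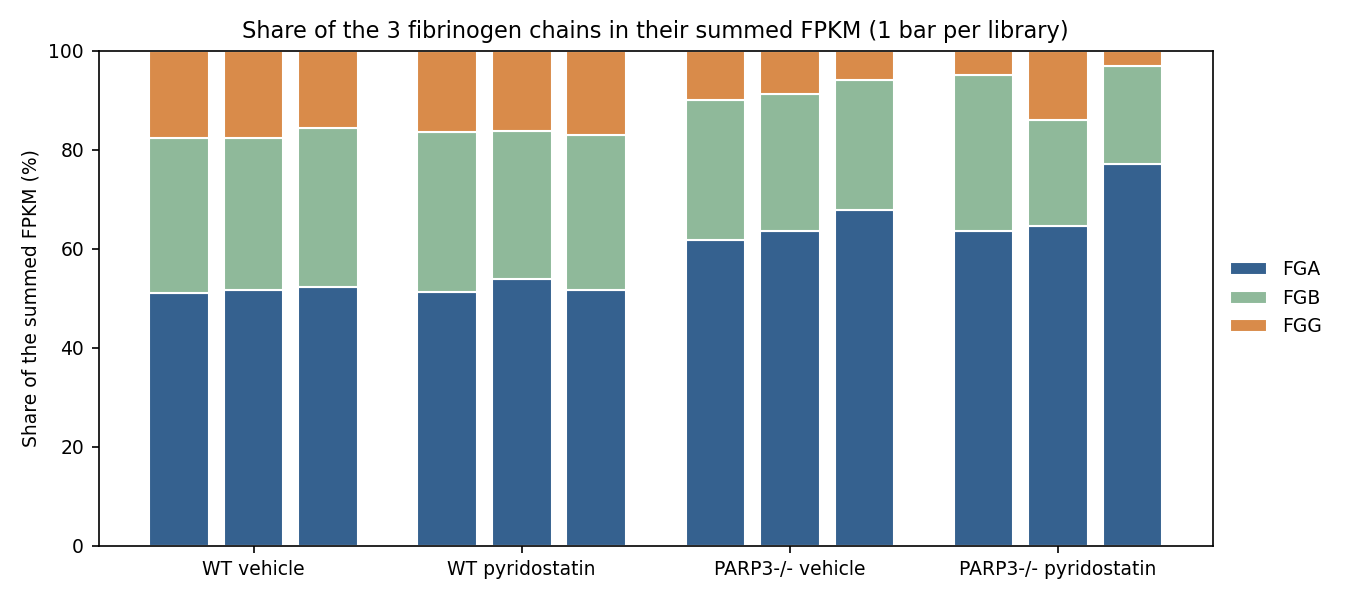
Share of FGA, FGB and FGG in the summed FPKM of the 3 genes, with 1 stacked bar for each of the 12 libraries, grouped by genotype and treatment. The FGA share is 51.0% to 53.9% in the 6 WT bars and 61.7% to 77.1% in the 6 PARP3-/- bars, and the FGG share is at least 15.6% in WT and at most 13.9% in PARP3-/- bars.

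The comparison of pyridostatin with vehicle was not used to choose the chains. In WT cells the differences in log2(FPKM + 1) were -0.10 for FGA, -0.12 for FGB and -0.11 for FGG, and none passed the test (limma fitted to 11881 genes, Benjamini-Hochberg adjusted p = 0.634, 0.455 and 0.628). The 95% intervals reached from -0.32 to 0.13 for FGA, from -0.30 to 0.06 for FGB and from -0.34 to 0.13 for FGG. In PARP3-/- cells the differences were 0.03, -0.09 and -0.02 (adjusted p = 0.919, 0.6001 and 0.955), with intervals from -0.20 to 0.25, from -0.27 to 0.09 and from -0.25 to 0.21. FGB and FGG averaged 0.702 and 0.220 FPKM in PARP3-/- cells, which limits how far they could fall on this scale. The difference between the genotypes' responses was 0.13 ± 0.14 for FGA, 0.02 ± 0.12 for FGB and 0.09 ± 0.15 for FGG (SE, adjusted p = 0.999 in each case). For FGB and FGG the low level in PARP3-/- cells limits this comparison too. With a pseudocount of 0.1 the difference became -0.060 for FGB and -0.060 for FGG.

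Over all genes tested, 4.17% passed an adjusted p of 0.05 for pyridostatin in WT cells (2.79% higher and 1.38% lower) and 5.56% in PARP3-/- cells (3.05% higher and 2.52% lower). None passed the interaction (0%), where 521 had an unadjusted p under 0.05, and at most 1 gene passed under any alternative. Between genotypes 9.41% passed with vehicle (6.40% higher and 3.01% lower in PARP3-/- cells) and 10.9% with pyridostatin (7.07% higher and 3.85% lower). The counts behind these shares moved by more than 1.5 times on leaving out single libraries, for pyridostatin from 495 genes down to 178 in WT (without WT pyridostatin replicate 1) and from 661 to between 254 and 1559 in PARP3-/- cells (without PARP3-/- pyridostatin replicate 3 and without WT vehicle replicate 2). The splits depended on the scaling. Of the genes called, 68.0% were higher in PARP3-/- vehicle, against 51.7% once the libraries were shifted to the same median, and the corresponding values were 64.8% and 53.1% with pyridostatin. For pyridostatin against vehicle they were 66.9% and 45.6% in WT, and 54.8% and 45.3% in PARP3-/- cells.

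SERPINA1, in liver one of the most abundant secreted transcripts, was close to the limit of detection in A549 cells. It was at 0.0983, 0.106 and 0.182 FPKM in WT vehicle and at 0.0684, 0.0948 and 0.124 FPKM in PARP3-/- vehicle. With pyridostatin it was at 0.0826, 0.0975 and 0.103 FPKM in WT and at 0.122, 0.129 and 0.132 FPKM in PARP3-/- cells. These values stand for about 6.03 to 15.4 reads per library. The genotypes overlapped with vehicle but not with pyridostatin, and the share of all genes that separate in this way was not counted. Its mean was below 1 FPKM, so it was not among the genes tested. In a fit without that filter (19332 genes) its difference between genotypes was -0.04 with vehicle and 0.04 with pyridostatin on the log2(FPKM + 1) scale (adjusted p = 0.495 and 0.465), which did not pass. The 95% intervals were -0.10 to 0.02 and -0.02 to 0.10.

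HNF4A, which encodes the nuclear receptor HNF4α, showed no separation of the groups. It was at 3.16, 3.53 and 3.84 FPKM in WT vehicle and at 3.27, 3.84 and 3.88 FPKM in PARP3-/- vehicle. With pyridostatin it was at 3.54, 3.66 and 3.67 FPKM in WT and 3.22, 3.24 and 3.77 FPKM in PARP3-/- cells. All 4 groups overlapped. The difference between genotypes was 0.05 with vehicle (95% interval -0.12 to 0.21, adjusted p = 0.780) and -0.07 with pyridostatin (-0.24 to 0.09, adjusted p = 0.632), so that a change by 1 log2 unit lay outside both intervals.

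FOXA1 was higher in PARP3-/- cells, opposite in direction to the chains. Its values were 5.23, 5.28 and 5.36 FPKM in WT vehicle and 6.27, 6.64 and 6.76 FPKM in PARP3-/- vehicle. With pyridostatin they were 4.71, 5.21 and 5.51 FPKM in WT and 6.44, 6.89 and 7.13 FPKM in PARP3-/- cells. All 6 PARP3-/- libraries lay above all 6 WT libraries, though the share of all genes that separate in this way was not counted. The mean of PARP3-/- cells was 124% of WT with vehicle and 133% with pyridostatin, a difference of 0.26 ± 0.055 (SE) and 0.35 ± 0.055 in log2(FPKM + 1) (limma, adjusted p = 0.0107 and 0.00199). Without replicate 2 of PARP3-/- vehicle the first did not pass (0.24, adjusted p = 0.0529), whereas it passed in the other 19 of 20 alternatives (changes of scale, filter, scaling or model, and each library left out, all at the same threshold on the adjusted p). The second passed in all 20. FOXA1 differed by -0.04 and 0.05 between pyridostatin and vehicle in WT and PARP3-/- cells (adjusted p = 0.759 and 0.699).

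FOXA2 was the most abundant of the 4 factors. It was at 14.6, 15.6 and 17.6 FPKM in WT vehicle, at 13.6, 15.7 and 16.0 FPKM in PARP3-/- vehicle, at 16.9, 17.1 and 21.4 FPKM in WT pyridostatin and at 19.1, 20.0 and 20.2 FPKM in PARP3-/- pyridostatin. The genotypes overlapped under both treatments, and their differences of -0.07 and 0.10 did not pass (adjusted p = 0.732 and 0.587). In PARP3-/- cells the 3 pyridostatin libraries lay above the 3 vehicle libraries, a rise of 0.37 ± 0.095 (SE, 95% interval 0.16 to 0.58) in log2(FPKM + 1) with an adjusted p of 0.0484 (limma). This call passed in 7 of 20 alternatives, with adjusted p-values from 0.0229 to 0.163, and was lost when any of 10 of the 12 libraries was left out (all but replicate 2 of WT vehicle and of WT pyridostatin). In WT cells the difference was 0.20 (-0.01 to 0.41, adjusted p = 0.276). The 2 responses differed by 0.17 ± 0.13 (adjusted p = 0.999), so they were not shown to differ between genotypes.

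CEBPA was lower in PARP3-/- cells by a small amount. It was at 6.11, 6.16 and 6.70 FPKM in WT vehicle and at 5.25, 5.67 and 5.83 FPKM in PARP3-/- vehicle. With pyridostatin it was at 6.26, 6.32 and 6.33 FPKM in WT and at 5.18, 5.21 and 5.33 FPKM in PARP3-/- cells. The 6 PARP3-/- libraries all lay below the 6 WT libraries, but the share of all genes that separate in this way was not counted. With pyridostatin the level of PARP3-/- cells was 83.1% of WT (-0.23 ± 0.046 (SE), adjusted p = 0.00858 by limma, and past the threshold in all 20 alternatives). With vehicle it was 88.3% of WT and the difference of -0.15 ± 0.046 missed the threshold (adjusted p = 0.0614), which it passed in 1 of 20 alternatives, moving the libraries to the same median (-0.19, adjusted p = 0.0382). Pyridostatin gave no call for CEBPA in either genotype (0.00 and -0.08, adjusted p = 0.980 and 0.404).

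**Figure D3:**
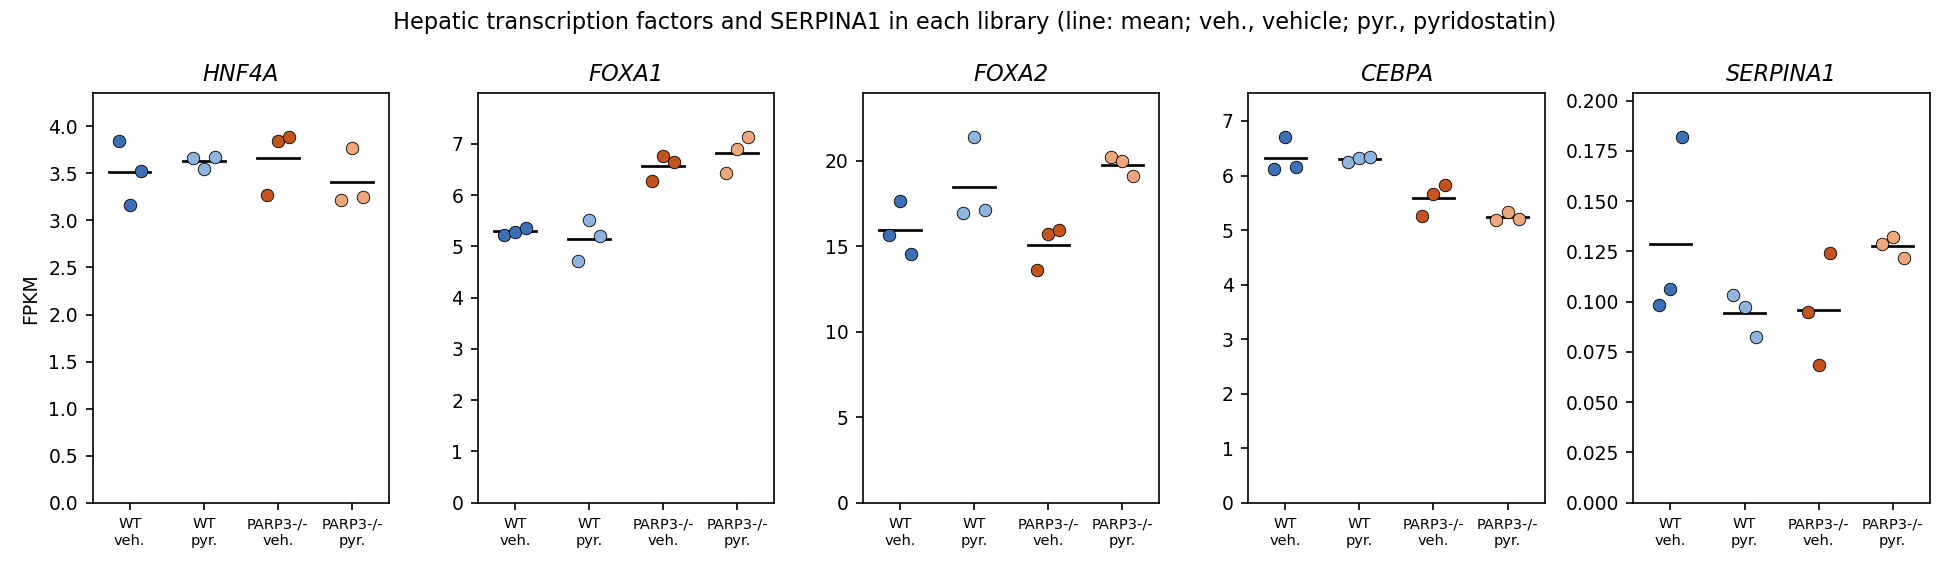
FPKM of HNF4A, FOXA1, FOXA2, CEBPA and SERPINA1 in each library, with 1 point per library, a line at the mean of each group (n = 3) and linear axes from 0 that differ between panels. FOXA1 is higher and CEBPA lower in all PARP3-/- libraries, HNF4A overlaps in all groups, FOXA2 is highest in the pyridostatin groups (means 18.5 and 19.8 FPKM), and SERPINA1 stays at or below 0.182 FPKM.

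Of the 4 factors, FOXA1 alone passed the test between genotypes with vehicle, and FOXA1 and CEBPA with pyridostatin, where 9.41% and 10.9% of all genes did. In WT vehicle the order of the 8 levels was FOXA2 (15.9 ± 1.6 FPKM), FGA, CEBPA (6.33 ± 0.33 FPKM), FOXA1 (5.29 ± 0.067 FPKM), FGB, HNF4A (3.51 ± 0.34 FPKM), FGG and SERPINA1 (0.129 ± 0.046 FPKM). FGA and CEBPA overlapped in this order, as did FGB and HNF4A. In PARP3-/- vehicle all 4 factors lay above all 3 chains, in the order FOXA2 (15.1 ± 1.3 FPKM), FOXA1 (6.56 ± 0.26 FPKM), CEBPA (5.58 ± 0.30 FPKM), HNF4A (3.67 ± 0.34 FPKM), FGA, FGB, FGG and SERPINA1 (0.0958 ± 0.028 FPKM), with no overlap between neighbours. In PARP3-/- pyridostatin the values of FGG spanned those of SERPINA1.

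**Figure D4:**
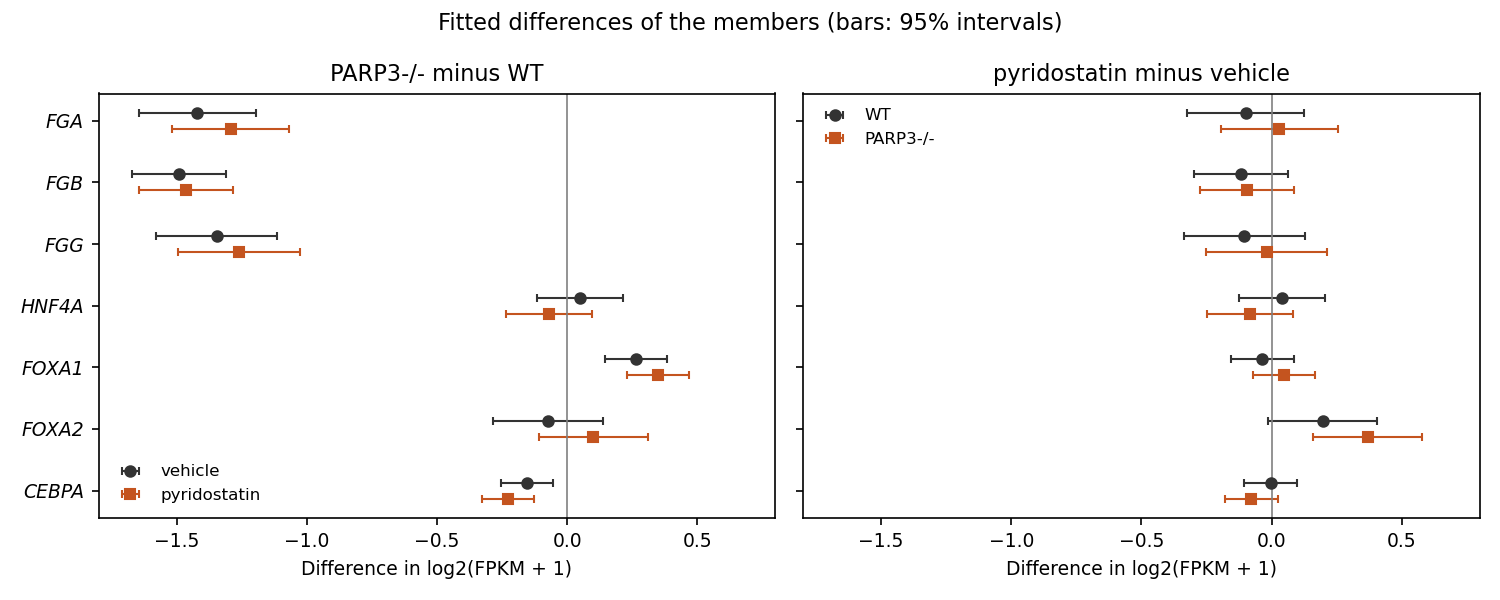
Fitted differences in log2(FPKM + 1) of the 7 members with a mean of at least 1 FPKM, with 95% intervals from limma. In the left panel (PARP3-/- minus WT, with vehicle and with pyridostatin) the chains lie between -1.49 and -1.26 and the 4 factors between -0.23 and 0.35. The chains were chosen by this contrast, so their intervals there describe the spread and are not a test, unlike those of the factors. In the right panel (pyridostatin minus vehicle, in WT and in PARP3-/- cells) all members lie between -0.12 and 0.37, and only the interval of FOXA2 in PARP3-/- cells leaves out 0.

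PLRG1, which encodes a splicing factor and lies next to FGB, did not pass the test between genotypes. It was at 21.2 FPKM in WT vehicle, 21.4 in PARP3-/- vehicle, 21.6 in WT pyridostatin and 20.5 in PARP3-/- pyridostatin (genotype difference 0.01 with vehicle, adjusted p = 0.934, and -0.07 with pyridostatin, adjusted p = 0.228). LRAT, a retinol-esterifying enzyme and the neighbour of FGG, had group means of at most 0.0190 FPKM, too low to show a difference. Next to SERPINA1, SERPINA6, which encodes the corticosteroid-binding globulin, was at 0.738 to 0.930 FPKM in the 4 groups, and SERPINA11 was at 0 in all libraries.

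The genes with the pattern most like the mean of the 3 chains were found by the root mean square difference of centred log2(FPKM + 1) values over the 12 libraries. The nearest 8 were FXYD2, SUSD2, AQP3, CES1, CEACAM5, MUC5B, SLPI and RTN4RL2, at 0.12 to 0.17, where the chains' own mean spanned 1.57. That profile holds the genotype difference that chose the chains, so genes near it share this difference by construction. Their means are given as a description. FXYD2, a modulator of the sodium pump, had means of 57.2 FPKM in WT vehicle and 22.5 FPKM in PARP3-/- vehicle. MUC5B, a gel-forming mucin of the airway, had means of 6.24 and 1.82 FPKM, and CES1, a carboxylesterase that is abundant in liver, of 2.53 and 0.211 FPKM. With pyridostatin these 3 genes had means of 57.0 and 23.8, 6.20 and 1.85, and 2.62 and 0.231 FPKM. CES1 passed the minimum of 1 FPKM on average only through the WT libraries. Nearest to SERPINA1 were NSMAF, GGCX, RUNX3, DPAGT1, ATXN10, RIC8B, PABPC1 and NKRF, at 0.02 to 0.04, whose levels hardly varied between groups, as for NSMAF with group means of 17.3 to 18.0 FPKM. SERPINA1 itself varied little on this scale, so flat genes lie near it by construction.

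Of 163 genes in 6 lists around fibrinogen, 82 passed the minimum of 1 FPKM on average and were tested, none of them a member. In PARP3-/- vehicle 19 were called higher and 9 lower than in WT (34.1%, against 9.41% of all genes). With pyridostatin 23 were called higher and 9 lower (39.0%, against 10.9%). The median difference in log2(FPKM + 1) was 0.05 in both, beside 0.01 over all genes. Because the lists were drawn up with earlier results from these libraries known, the counts are not independent evidence. Pyridostatin gave few calls in them, 4 lower and none higher in WT cells (4.88%, against 4.17%) and 3 higher and 3 lower in PARP3-/- cells (7.32%, against 5.56%), and no listed gene passed the interaction, where 5 had an unadjusted p under 0.05.

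Of 32 genes of coagulation and fibrinolysis, 15 were tested. In PARP3-/- cells 6 were called higher and 2 lower with vehicle, and 8 higher and 2 lower with pyridostatin (median differences 0.05 and 0.24). These calls were 53.3% and 66.7% of the tested genes, against 9.41% and 10.9% of all genes. Several of those that rose belong to the plasminogen system, plasminogen being the precursor of the enzyme that cuts fibrin. PLAT (tissue plasminogen activator) rose from 1.19 ± 0.017 FPKM in WT vehicle to 3.89 ± 0.34 FPKM in PARP3-/- vehicle (log2 difference 1.16, adjusted p = 5.68e-06 by limma). PLAU (urokinase) rose from 125 ± 3.3 to 184 ± 7.0 FPKM and its receptor PLAUR from 41.7 ± 2.7 to 47.6 ± 0.64 FPKM (adjusted p = 4.43e-06 and 0.0212). SERPINE2, an inhibitor of serine proteases, rose from 35.2 ± 0.29 to 50.2 ± 0.34 FPKM (adjusted p = 1.58e-05). TGM2, a transglutaminase, rose from 313 ± 2.3 to 420 ± 7.8 FPKM (adjusted p = 3.53e-05). THBD (thrombomodulin) fell from 3.51 ± 0.19 to 2.57 ± 0.10 FPKM, and PROCR, the receptor of protein C, from 84.9 ± 6.2 to 74.6 ± 2.6 FPKM (adjusted p = 0.00349 and 0.0445). PLAUR and PROCR passed in 13 and 6 of 20 alternatives with vehicle, and the other 6 in each alternative that could be computed (19 or 20). With pyridostatin the same 8 genes were called in the same directions (PROCR in 10 of 20 alternatives), along with F8 and SERPINF2, which passed in 14 and 9 of 19. SERPINF2 (α2-antiplasmin) fell with pyridostatin in WT cells (-0.36, adjusted p = 0.0358), a call that held in 10 of 19 alternatives.

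The acute-phase list, to which the fibrinogen chains belong in liver, had 10 of 29 genes tested. CRP was at 0 in all libraries, HP was at most 0.0334 FPKM and ORM1 at most 0.0852 FPKM. With vehicle 5 of the 10 were called higher in PARP3-/- cells and none lower (median 0.32). With pyridostatin 5 were called higher and 1 lower (median 0.24). These calls were 50% and 60% of the tested genes, against 9.41% and 10.9% of all genes. The complement gene C3 rose from 41.5 ± 0.58 FPKM in WT vehicle to 57.1 ± 1.2 FPKM in PARP3-/- vehicle, and LCN2 (lipocalin-2) from 55.0 ± 6.6 to 73.8 ± 5.5 FPKM (limma, adjusted p = 5.32e-05 and 0.00963). SAA1 and SAA2 (serum amyloid A) rose from 3.89 ± 1.0 to 6.07 ± 0.20 FPKM and from 1.81 ± 0.38 to 3.34 ± 0.61 FPKM (adjusted p = 0.0199 and 0.00613). The 2 SAA genes are near-identical, so reads could be split between them in either way. SAA1 passed in 15 of 20 alternatives, and LCN2 and SAA2 failed in 1 each. With pyridostatin C3, LCN2, SAA2 and SERPINA3 were higher by 0.47, 0.55, 0.52 and 0.26, of which SAA2 passed in 15 of 19 and SERPINA3 in 11 of 20 alternatives. FGL1, a fibrinogen-related hepatokine, was lower in PARP3-/- pyridostatin, at 28.8 ± 0.60 against 33.3 ± 1.5 FPKM (adjusted p = 0.0250, passed in 15 of 20). It also fell from vehicle to pyridostatin in PARP3-/- cells (-0.20, adjusted p = 0.0465, passed in 7 of 20).

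Among 27 genes of interleukin-6, STAT3 and glucocorticoid signalling, 23 were tested. In each genotype comparison 7 were called higher and 1 lower in PARP3-/- cells, with a median of 0.08 in both. These calls were 34.8% of the tested genes, against 9.41% of all genes with vehicle and 10.9% with pyridostatin. SOCS3, a feedback inhibitor that STAT3 induces, rose from 10.9 ± 0.25 FPKM in WT vehicle to 17.2 ± 0.32 FPKM in PARP3-/- vehicle, and STAT3 itself from 47.8 ± 2.2 to 58.1 ± 0.74 FPKM (limma, adjusted p = 1.50e-05 and 0.00143). IL1B rose from 0.634 ± 0.17 to 1.72 ± 0.29 FPKM (limma, adjusted p = 0.00275). All WT libraries were below 1 FPKM for IL1B, which passed the minimum of 1 FPKM on average only through the PARP3-/- libraries. Its place among the tested genes thus rested on the genotype in which it was higher. TSC22D3, a glucocorticoid-induced gene, rose from 7.33 ± 0.72 to 10.8 ± 0.21 FPKM (limma, adjusted p = 0.00115). IL11 rose from 6.59 ± 0.35 to 9.08 ± 0.39 FPKM (limma, adjusted p = 0.00418). STAT5A and STAT5B rose by 0.34 and 0.20 (adjusted p = 0.00457 and 0.0123, passed in 18 of 19 and 19 of 20 alternatives). With pyridostatin the same 8 genes were called in the same directions, with TSC22D3 in 13 and STAT5B in 17 of 20 alternatives. The receptor genes IL6R and IL6ST and the glucocorticoid receptor NR3C1 did not pass between genotypes (differences from -0.21 to 0.14, adjusted p from 0.233 to 0.750). IL6 was at 0.0800 to 0.441 FPKM. IL11 fell with pyridostatin in both genotypes, with differences of -0.43 in WT and -0.29 in PARP3-/- cells (adjusted p = 0.00810 and 0.0418, passed in 19 and 9 of 20 alternatives).

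The list of other hepatic and endodermal transcription factors had 14 of 26 genes tested. With vehicle 3 were called lower in PARP3-/- cells and none higher (median -0.07). With pyridostatin 2 were called higher and 1 lower (median 0.01). These calls were 21.4% of the tested genes in each comparison, against 9.41% and 10.9% of all genes. CEBPB, the C/EBP factor of the acute-phase response, was at 38.1, 40.3 and 48.3 FPKM in WT vehicle and at 23.9, 27.9 and 27.9 FPKM in PARP3-/- vehicle. With pyridostatin it was at 35.8, 40.6 and 48.5 FPKM in WT and at 36.1, 38.1 and 44.8 FPKM in PARP3-/- cells. CEBPB was thus lower in PARP3-/- vehicle than in the 3 other groups. Its difference between genotypes was -0.65 ± 0.12 (SE) with vehicle (limma, adjusted p = 0.00715, passed in all 20 alternatives) and -0.06 with pyridostatin (adjusted p = 0.830), and in PARP3-/- cells it rose by 0.56 ± 0.12 with pyridostatin (adjusted p = 0.0273, passed in 14 of 20). The test of the interaction did not pass (0.58 ± 0.18, adjusted p = 0.999), although its unadjusted p was 0.00704. NR2F2 (COUP-TFII) and XBP1, a factor of the unfolded protein response, were lower in PARP3-/- vehicle, with differences of -0.29 and -0.25 (adjusted p = 0.0432 and 0.0301, passed in 8 and 15 of 20). With pyridostatin XBP1 was lower (-0.24, adjusted p = 0.0311, passed in 15 of 20), and GATA6 and NR5A2 were higher by 0.29 and 0.31 (adjusted p = 0.0344 and 0.0435, passed in 12 and 7 of 19). CEBPG, the neighbour of CEBPA, fell with pyridostatin in WT cells (-0.20, adjusted p = 0.0497, passed in 3 of 20).

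Among hepatocyte secreted proteins and enzymes, 6 of 29 genes were tested. None was called higher in PARP3-/- cells, while 2 were called lower with vehicle and 3 with pyridostatin (medians -0.19 and -0.20). These calls were 33.3% and 50% of the tested genes, against 9.41% and 10.9% of all genes. The apolipoprotein gene APOC1 fell from 57.4 ± 8.8 FPKM in WT vehicle to 42.7 ± 1.7 FPKM in PARP3-/- vehicle (limma, adjusted p = 0.0176, passed in 17 of 20 alternatives). With pyridostatin APOC1 and APOH were lower, with differences of -0.39 and -0.21 (adjusted p = 0.0197 and 0.0464, passed in 16 and 8 of 20 alternatives). APOH was also the gene that made up nearly all of the hepatocyte marker sum, which was 6.63 to 7.26 FPKM in PARP3-/- and 7.43 to 8.57 FPKM in WT libraries. The lower sum is therefore that of APOH, which was not called with vehicle, and not a shift of the list. The other markers averaged below 1 FPKM, and some were higher and others lower in PARP3-/- cells. The part of that difference in the results was not tested.

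Of 20 receptors and partners of fibrinogen 14 were tested. In each genotype comparison 1 was called higher and 1 lower in PARP3-/- cells. That is 14.3% of the tested genes, against 9.41% of all genes with vehicle and 10.9% with pyridostatin. With vehicle ITGA5, a subunit of the fibronectin receptor, rose from 11.9 ± 0.17 to 15.7 ± 0.21 FPKM in PARP3-/- cells, and ICAM1, an adhesion molecule that binds fibrinogen, fell from 3.58 ± 0.17 to 2.53 ± 0.13 FPKM (limma, adjusted p = 6.16e-05 and 0.00554, passed in 20 of 20 and 19 of 19 alternatives). With pyridostatin ITGA5 was higher by 0.44 and HSPA5, a chaperone of the endoplasmic reticulum, lower (-0.14, adjusted p = 1.78e-05 and 0.0358, the latter passed in 10 of 20). The medians of the list were 0.03 and 0.02. HSPA5 fell with pyridostatin in both genotypes, from 178 ± 4.6 to 154 ± 6.3 FPKM in WT and from 175 ± 3.3 to 139 ± 2.5 FPKM in PARP3-/- cells (adjusted p = 0.0138 and 0.000831, passed in 18 and 20 of 20 alternatives). ITGA5 rose by 0.14 with pyridostatin in PARP3-/- cells (adjusted p = 0.0433, passed in 6 of 20).

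**Figure D5:**
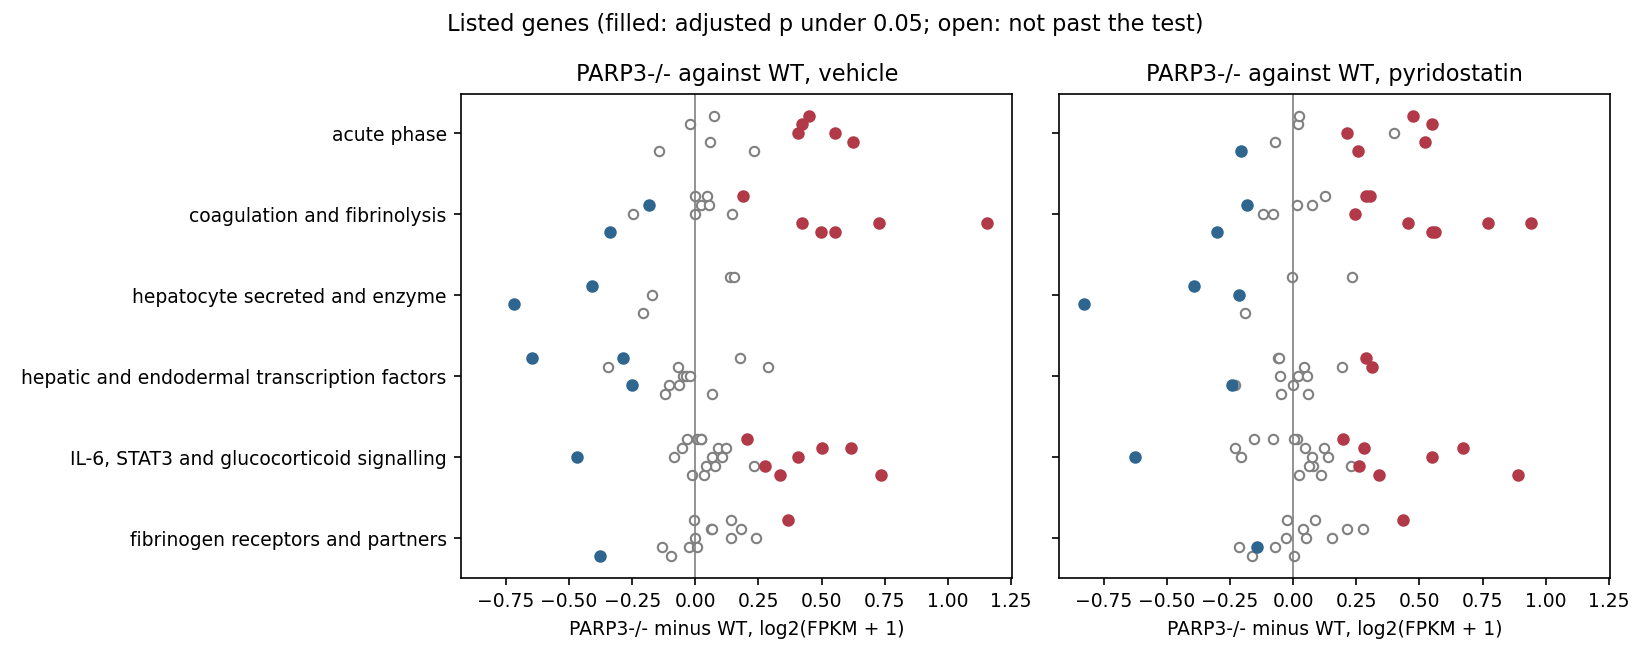
Differences in log2(FPKM + 1) between PARP3-/- and WT cells for the 82 tested genes of the 6 lists, with 1 point per gene, filled where the adjusted p is under 0.05 (red higher, blue lower in PARP3-/- cells) and open otherwise. Filled points of the coagulation and fibrinolysis, acute phase and signalling lists lie mostly to the right of 0, with PLAT farthest at 1.16 with vehicle, while those of the hepatocyte list all lie to the left. Of all genes called, 68.0% with vehicle and 64.8% with pyridostatin were also higher in PARP3-/- cells. After a shift to the same median these shares were 51.7% and 53.1%.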

How the data were processed

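RNA of 12 A549 samples, 3 in each of 4 groups taken from the labels, was sequenced from stranded mRNA libraries as single-end 75 base reads. The authors deposited FPKM values per gene symbol, made with Cufflinks after alignment with STAR 2.5 (bcl2fastq 2.16 for base calls, per the submitters' processing notes, which name the builds hg19 and mm9 without a role). The gene annotation is not given in the sources used here. The file holds no counts, so count models were not used. Depth was estimated from the low values of 859 genes with a single transcript (24100000 to 34100000 reads per library, with 11.8% to 13.9% of those low values at 1 read), and the approximate reads given cover counting error only.

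Values were taken as log2(FPKM + 1). Genes that averaged 1 FPKM or more (11881) were fitted with limma 3.58.1 (R 4.3.3) in 1 model of 4 groups with a trended prior variance, and p-values were adjusted by Benjamini-Hochberg over all of them. A call is an adjusted p under 0.05. The procedure was also run on simulated data with 200 changed genes and independent noise in each gene. Those data held no deviation shared by a whole library, so the run does not bear on how counts move when a library is left out. Tables and plots were made with Python 3.11.15, numpy 2.4.6, pandas 2.3.3 and matplotlib 3.10.9. Alternatives were a pseudocount of 0.1, no filter, a minimum average of 5 FPKM, scaling by quantiles or to the same median, the libraries of one comparison alone, no variance trend, the replicate number as a block, and leaving out each library. A log2 difference above 1 was applied to the counts of listed genes alone and is not among the alternatives counted for single genes. The promoters and the neighbours of genes come from RefSeq (GRCh38.p14), where 7 of the 8 members have a promoter entry, and only the names of neighbours were used.

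The members and lists were chosen with earlier results of these data known. Named genes were the members, PARP3, defining markers, neighbours, the 8 nearest patterns to the chains and to SERPINA1, and from each list at most 4 called genes per direction between genotypes and 2 between treatments, by size. TGM2, PLAUR, F8, STAT3, STAT5A, STAT5B and the listed genes given as not passing or at 0 were picked once their values were known. A few genes that the list counts include are not reported here by name.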

Additional observations from a re-analysis of the deposited data

How the results depend on the processing

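The differences of the fibrinogen chains between genotypes kept their sign under every alternative run. They moved with a pseudocount of 0.1 to -1.81 (FGA), -2.24 (FGB) and -2.78 (FGG) with vehicle and to -1.65, -2.30 and -2.84 with pyridostatin, by the construction of that scale, and FGB moved with quantile normalization to -1.67 with vehicle. Leaving out 1 library gave FGG differences down to -1.40 with pyridostatin (without PARP3-/- pyridostatin replicate 2). The calls of FOXA1 and CEBPA with pyridostatin held in the 20 alternatives run for them, which do not include a log2 difference above 1. FOXA1 with vehicle was lost without PARP3-/- vehicle replicate 2 (0.24), and CEBPA with vehicle passed after the shift to a common median (-0.19). The rise of FOXA2 in PARP3-/- cells was lost without a filter (0.37), after the median shift (0.35), without a variance trend (0.37) and on leaving out 10 of 12 libraries (0.30 to 0.41).

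Signs turned only for differences that did not pass the test. HNF4A between genotypes with vehicle became -0.0039 (quantile normalization) or -0.0074 (without WT vehicle replicate 2), and between treatments in WT -0.0090 or -0.017 in the same settings, with leave-one-out values up to 0.111 and 0.092. Between treatments in WT, FOXA1 became 0.015 without WT pyridostatin replicate 1, and CEBPA 0.033 without WT vehicle replicate 2 and 0.0013 without WT pyridostatin replicate 1, while the other ends of these ranges were -0.079 and -0.024. In PARP3-/- cells FGA became -0.059 or -0.041 (without vehicle replicate 1 or pyridostatin replicate 2), FGB 0.013 (quantile normalization) and FGG 0.035 or 0.064 (without pyridostatin replicate 1 or 3), and at the other end FGA reached 0.144 and FGG -0.155. The interaction became -0.060 for FGB and -0.060 for FGG with a pseudocount of 0.1, and on leaving out 1 library it ran from -0.035 to -0.0017 for FGB in 5 cases and was -0.050 for FGG without PARP3-/- pyridostatin replicate 2, with upper ends of 0.099 and 0.169. Of 673 values of members, 630 counted as unchanged. For tested differences this means the same call and direction. For the chains between genotypes, which have no call, it means the same sign and a shift smaller than the SD within groups. A further 8 values of the chains kept their sign but moved by at least that SD.

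Of the listed genes, 28 passed between genotypes with vehicle. This fell to 18 with only the libraries of the comparison and to 1 with a log2 difference above 1, and ran from 22 to 32 on leaving out 1 library. The 32 with pyridostatin became 21 with a mean of at least 5 FPKM, where fewer genes are tested, and 0 with the log2 limit, and ran from 18 (without PARP3-/- pyridostatin replicate 2) to 39. For pyridostatin in WT cells 4 became 0 with only the libraries of the comparison and 0 with the log2 limit, and ran from 1 (without WT pyridostatin replicate 1) to 6. In PARP3-/- cells 6 became 0 with the log2 limit and ran from 1 (without vehicle replicate 2 or 3 or pyridostatin replicate 2 or 3) to 15. Over all genes, the 1118 calls between genotypes with vehicle became 532 with only the libraries of the comparison, and the 495 for pyridostatin in WT became 65. On leaving out 1 library the 4 counts ran from 746 to 1644, from 806 (without WT pyridostatin replicate 3) to 2298 (genotypes with pyridostatin, 1297 with all libraries), from 178 to 706 and from 254 to 1559. They moved by more than 1.5 times without WT pyridostatin replicates 1 or 3 or PARP3-/- pyridostatin replicates 2 or 3 (813, 806, 842 and 842 of 1297), without WT vehicle replicate 3 or WT pyridostatin replicates 1 or 3 (252, 178 and 237 of 495), and without any PARP3-/- vehicle replicate or PARP3-/- pyridostatin replicates 2 or 3 (346, 300, 310, 285 and 254 of 661). The highest count in each case came without WT vehicle replicate 2. The cause was not tested. No called gene of the lists changed sign.

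Same-numbered replicates showed little shared deviation (18 correlations, -0.12 to 0.22). The labels do not say whether the numbers pair the samples, and low correlations cannot settle it. With the replicate number as a block, 27, 25, 4 and 5 listed genes passed in the 4 comparisons, the interaction gave 0, and no call of a member changed. At these depths FGG in PARP3-/- cells and SERPINA1 rest on few reads.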
